A study of Mus musculus with 16 samples.

Results

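Wild type spinal cord was compared with wild type brain late in mouse gestation. The 8 arrays of this comparison, 4 of spinal cord and 4 of brain, were the samples titled as wild type among 16 arrays in all. They held total RNA from the spinal cord, and from the whole brain, of wild type CD1 embryos at E18.5, counted in days of gestation, with 1 array to a biological replicate. CD1 is an outbred stock, so embryos can differ in sequence. The other 8 arrays, 4 of spinal cord and 4 of brain, came from CD1 embryos of the same age without Nova1 and Nova2, a double knockout (dKO) of paired RNA-binding proteins through which neurons control their splicing. In this comparison the dKO arrays entered the estimate of the spread but not the wild type means. They also gave a tissue difference of their own, from dKO means. Affymetrix exon arrays carry probe sets for single exons, so both the level of a gene and the relative signal of its exons can be read.

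Regions of the central nervous system differ by which transcription factors their cells keep from early patterning. Hox genes, which lie in clusters and are switched on in nested domains along the body axis, mark the hindbrain and spinal cord and are silent further forward. The forebrain and midbrain are marked by other factors, such as those of cortical neurons. The spinal cord holds motor neurons, which use acetylcholine, dorsal horn neurons that receive touch and pain input, and many inhibitory neurons that use glycine. Late in gestation, neurons of the cord have largely left the cell cycle while parts of the forebrain still make new ones.

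Levels are given as log2(intensity + 16), the median over the probe sets of a gene, after each array was shifted to the same median gene level. This scale understates the change of dim genes. A difference is the mean of the spinal cord arrays minus the mean of the brain arrays on that scale. A gene was called where the adjusted p of limma's moderated test was under 0.05, and "2-fold" means called with a difference of at least 1. The floor, 6.73 on this scale, was the median of all probe sets and not a limit of detection. Probe sets were kept where their mean over all 16 arrays lay above it. A gene near silent in a tissue could thus enter through the other tissue. Where the lower tissue lay under the floor, the fold is given as a lower bound against the floor. Such bounds hold for these settings, and some other settings gave smaller values. In bulk tissue, fewer cells of a type and less RNA per cell cannot be told apart.

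Some arrays stood apart before any gene was compared. Correlations of gene levels ran from 0.950 to 0.960 within wild type cord, from 0.946 to 0.982 within wild type brain and from 0.836 to 0.926 between the tissues. WT brain 3 was the brain array nearest to cord, with a correlation of 0.922 to the mean cord profile against 0.851 to 0.874 for the other brain arrays. Its mean level over cortical and hippocampal factors was 8.35, against 9.46 to 9.62 on the other brain arrays, and its mean over midbrain and cerebellum genes was 8.81, against 8.32 to 8.36. Cord arrays 1 and 4 were rich in skeletal muscle RNA, with mean muscle gene levels of 9.35 and 8.98 against 7.75 and 7.65 on cord arrays 2 and 3 and 6.77 to 7.21 in brain. The same pair of cord arrays had Xist, the RNA of the inactive X chromosome, at 11.45 and 11.56, against 4.71 and 4.98 on cord arrays 2 and 3. In brain, Xist read 4.63, 11.23, 11.81 and 4.74. The difference also moved with brightness. Median differences were 0.40, 0.10, -0.12 and -0.26 over 4 equal groups of genes ordered from dim to bright, and 0.44, 0.10, -0.15 and -0.27 in the dKO arrays. The part of this trend in the small differences below was not tested, and values with a loess correction of it are given for some results only.

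Of 14570 genes measured, 4385 (30.1%) were called higher and 4379 (30.1%) lower in spinal cord. Counts of called genes in each list below are to be read beside these shares. Before each array was centred the median difference was -0.16, and without centring 34.1% of called genes were higher, against 50% with it and 24.3% with quantile normalization. Most calls were small. Differences of 2-fold or more were found for 359 genes higher in cord (2.46%) and 142 lower (0.975%). The arrays of the tissues did not overlap for 337 of the 359 and 127 of the 142. Leaving out WT brain 3 gave 567 and 242, of which 352 and 137 were among the first sets. Without the muscle-rich arrays the counts were 403 and 160, and 282 and 118 were shared.

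**Figure D1:**
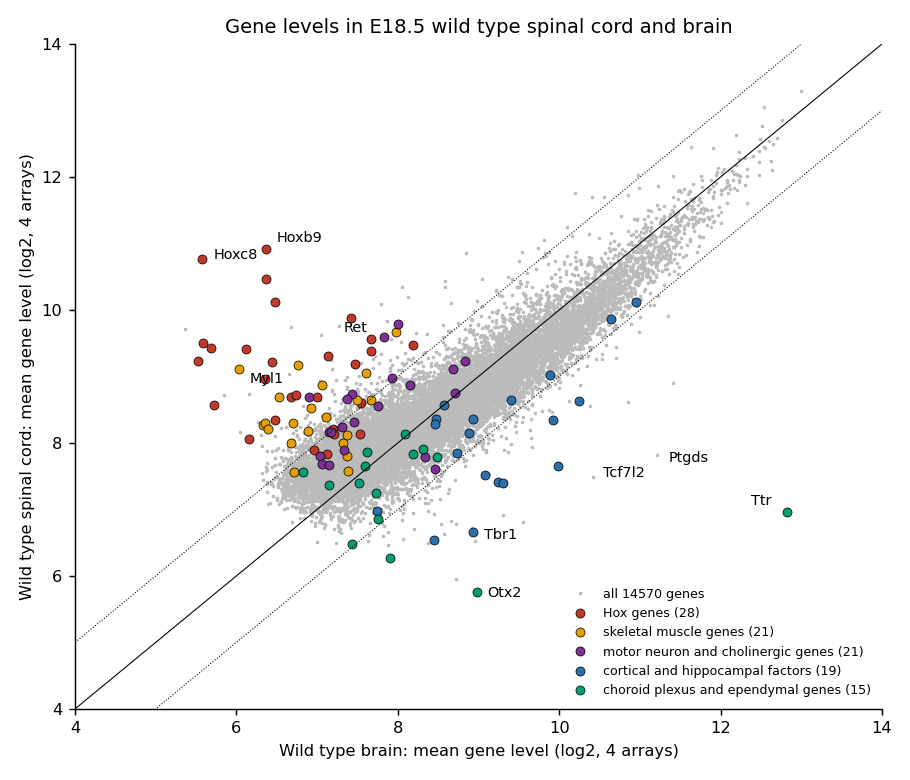
Mean gene level over 4 wild type spinal cord arrays (vertical axis, log2) against 4 wild type brain arrays (horizontal axis, log2) for 14570 genes, with 5 gene lists in colour. The solid line marks equal levels and dotted lines a difference of 1. Most Hox and muscle genes lie above the upper dotted line, and Ttr, Otx2 and Tcf7l2 far below the lower one.

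Of the gene lists, the Hox genes had the largest median difference. Of 28 Hox genes measured, 26 were called higher in cord and none lower, 23 of them by 2-fold or more, with a median difference of 2.00. For 14 of the 28 the brain mean lay under the floor. These could enter through cord arrays alone, which favours such counts. The share called higher among all genes was 30.1%, and the median over all genes was close to 0. Without WT brain 3 all 28 were called higher. Mean Hox levels were 9.08, 9.13, 9.11 and 9.08 on the cord arrays, against 6.93, 6.53, 7.31 and 6.15 on the brain arrays.

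Hoxc8, which patterns the forelimb and thoracic levels of the cord, read 10.76, 10.63, 10.93 and 10.74 in cord, against 5.53, 4.93, 5.90 and 5.95 in brain. It was at least 16.4-fold higher in cord (difference 5.19 ± 0.21 SE, adjusted p = 8.57e-12). Hoxb9 read 10.87, 10.76, 11.12 and 10.91 in cord and 6.44, 6.14, 6.40 and 6.49 in brain, and was at least 18.2-fold higher. For both genes every brain array lay under the floor, so the size of the rise is a bound. Hoxd10, a lumbar gene with a part in hindlimb motor neurons, read 10.39, 10.33, 10.63 and 10.47 in cord, against 6.18, 6.18, 6.88 and 6.23 in brain (at least 13.2-fold). On every brain array but WT brain 3, Hoxd10 lay clearly under the floor. Hoxa9, a neighbour of Hoxa7 and Hoxa10 in its cluster, read 9.44, 9.52, 9.37 and 9.67 in cord and 5.72, 5.47, 5.68 and 5.47 in brain (at least 6.82-fold).

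Promoters of Hox genes whose levels moved together are shown with that of Lhx9, a gene that was lower in cord. Each is the RefSeq sequence from 250 bases before to 50 bases after a transcript start on build GRCm38.p6, 5′ to 3′ on the strand of the gene, with CG dinucleotides in capitals. Hoxd10 lies at chr2:74691641-74691940 on the plus strand, Hoxa9 at chr6:52227321-52227620 on the minus strand and Lhx9 at chr1:138842395-138842694 on the minus strand.
Hoxd10: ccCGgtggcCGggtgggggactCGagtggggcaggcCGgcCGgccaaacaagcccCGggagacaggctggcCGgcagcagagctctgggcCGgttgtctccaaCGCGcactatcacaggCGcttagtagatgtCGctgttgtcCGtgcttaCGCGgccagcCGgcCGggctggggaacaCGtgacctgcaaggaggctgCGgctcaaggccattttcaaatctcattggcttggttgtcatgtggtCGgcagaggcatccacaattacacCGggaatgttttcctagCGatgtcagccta
Hoxa9: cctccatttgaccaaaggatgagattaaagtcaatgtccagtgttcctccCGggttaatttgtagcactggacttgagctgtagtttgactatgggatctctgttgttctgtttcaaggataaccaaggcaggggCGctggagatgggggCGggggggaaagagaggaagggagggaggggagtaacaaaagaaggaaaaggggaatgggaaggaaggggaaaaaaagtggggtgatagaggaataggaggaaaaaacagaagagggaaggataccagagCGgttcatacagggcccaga
Lhx9: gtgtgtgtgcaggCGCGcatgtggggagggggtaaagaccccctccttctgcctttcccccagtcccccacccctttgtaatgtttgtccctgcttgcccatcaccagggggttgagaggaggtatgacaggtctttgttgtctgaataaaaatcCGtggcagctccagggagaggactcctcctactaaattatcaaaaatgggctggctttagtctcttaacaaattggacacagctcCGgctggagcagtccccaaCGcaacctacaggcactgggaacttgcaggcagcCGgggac
The Hoxd10 window held 22 CG dinucleotides, the Hoxa9 window 4 and the Lhx9 window 6, where the median over 32544 mouse promoters of 300 bases was 7. A median of 14 was found over 17 windows of 15 measured Hox genes. On both strands, TATAAA was in none of these 3 windows, in 2 of the 17 Hox windows (11.8%) and in 13.6% of all promoters. TGATTNAT, a motif bound by Hox proteins together with Pbx, was in none of the 3, in 2 of 17 Hox windows (11.8%) and in 3.23% of all promoters. A match is a description of the letters and not a bound site.

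Brain arrays spread more widely for anterior Hox genes than for posterior ones. The 17 measured genes of paralog groups 6 to 13 did not overlap between the tissues on any array, with differences from 0.94 (Hoxa10) to 5.19 (Hoxc8) and a median of 2.84. The 11 genes of groups 2 to 5 had differences from 0.60 to 2.79 and a median of 1.70, and 6 of the 11 did not overlap. The spread over brain arrays was wider in this group, with a median SD of 0.80 against 0.33 in groups 6 to 13. For 14 of the 28 Hox genes measured the brain mean lay under the floor, where this scale understates changes. As such genes could enter through cord arrays alone, the choice of probe sets favoured genes without overlap. The part of the floor in the narrower spread of groups 6 to 13 was not tested. Hoxa5, for example, read 9.75, 9.81, 9.10 and 9.24 in cord, against 9.30, 8.47, 9.91 and 5.08 in brain (difference 1.28, adjusted p = 0.0987). Its brain arrays ran from below the floor to above every cord array. Its difference was 1.86 (adjusted p = 0.0152) without WT brain 3 and 0.24 (adjusted p = 0.438) without WT brain 4. Hoxc5 read 9.30, 9.23, 9.04 and 9.32 in cord and 6.99, 6.40, 7.48 and 4.88 in brain. WT brain 4 was the lowest brain array for both genes, and WT brain 3 the highest. Hoxa4 differed by 0.60 (adjusted p = 0.0749), by 0.93 (adjusted p = 0.00256) without WT brain 3, by 0.39 (adjusted p = 0.255) without WT brain 4 and by 0.40 (adjusted p = 0.249) without WT brain 2. Hoxc13, the most posterior gene measured, read 8.43, 8.71, 8.65 and 8.62 in cord, against 7.67, 7.22, 7.95 and 7.33 in brain, a 2.09-fold difference. Hox genes with too few probe sets above the floor, or with no probe set of their own, were not measured, among them Hoxb1, Hoxd4, Hoxa13 and Hoxd13.

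**Figure D2:**
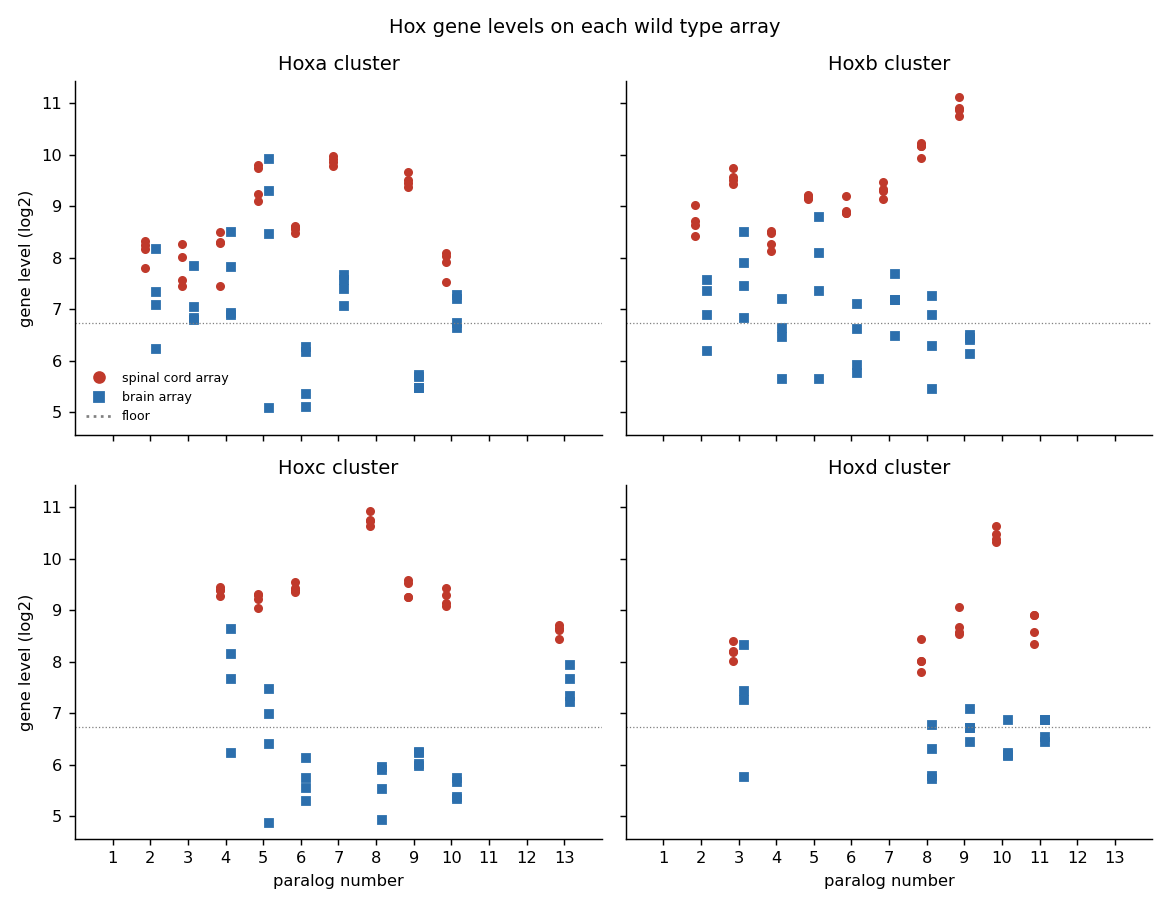
Level (log2) of each measured Hox gene on the 4 wild type spinal cord arrays (circles, left of each position) and the 4 wild type brain arrays (squares), by cluster and paralog number. The dotted line is the floor of 6.73. From paralog 6 on, cord and brain points stay apart, while in groups 2 to 5 the brain points are spread widely.

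Genes of dorsal horn neurons were more often higher than lower in cord. Of 20 dorsal horn genes measured, 11 were called higher and 4 lower in cord, 7 and 2 of them by 2-fold or more, with a median of 0.58. Prrxl1, a homeobox factor of nociceptive circuits, read 9.68, 9.97, 9.83 and 9.54 in cord, against 7.35, 6.93, 7.88 and 6.91 in brain, 5.60-fold higher (adjusted p = 1.71e-08). Pax2, a factor of inhibitory dorsal interneurons, read 9.27, 9.14, 9.34 and 9.24 in cord and 7.03, 6.90, 8.21 and 6.55 in brain, and its relative Pax8 rose by 1.92. Lbx1, which sets the identity of dorsal neurons, rose by 1.55, and Tlx3, which favours the glutamatergic over the GABAergic fate in the dorsal horn, rose by 1.29. In all 4 of Pax2, Pax8, Lbx1 and Tlx3 the highest brain array was WT brain 3. Other members of the list were lower in cord. Calb2, which encodes the calcium-binding protein calretinin, was 2.81-fold lower in cord, and the neuropeptide gene Nts fell by 1.51, although on WT brain 3 Nts (7.59) was as low as in cord. Tcfap2b, a factor of dorsal neurons and of the midbrain, fell by 0.78.

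Ventral interneuron genes moved less. Of 21 measured, 8 were called higher and 2 lower (30.1% of all genes each way). The median of 0.20 turned to -0.07 with quantile normalization, where 4 were higher and 6 lower. Nr5a2 rose by 0.94 and Wt1, found in a class of ventral interneurons, by 0.91. Lhx1 rose by 0.65. The largest falls were Shox2, a factor of rhythm-generating ventral interneurons that the brain also uses (-1.22), and Gata3 (-1.10), which is active in the midbrain as well as in V2b neurons. Both were highest on WT brain 3, at 8.13 and 8.91.

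Motor neuron and cholinergic genes were higher in cord as a group. Of 21 measured, 18 were called higher and 2 lower, with 7 of the 18 at 2-fold or more and a median of 0.79. Mean levels were 8.45, 8.56, 8.49 and 8.46 on the cord arrays, against 7.68, 7.62, 8.02 and 7.55 on the brain arrays. Ret, the signalling receptor for glial cell line-derived neurotrophic factor, read 9.63, 9.60, 9.59 and 9.52 in cord and 7.90, 7.74, 8.29 and 7.36 in brain, 3.39-fold higher (adjusted p = 2.72e-07). Prph, the intermediate filament peripherin of motor and sensory neurons, was 3.45-fold higher. Slc5a7, the transporter that brings choline into cholinergic terminals, read 8.80, 8.79, 8.57 and 8.82 in cord, against 7.17, 7.41, 7.93 and 7.19 in brain. Calcb, a calcitonin gene-related peptide of motor and sensory neurons, rose by 1.79. The 2 members called lower were Isl1 (-0.85), which brain also uses in the striatum and hypothalamus, and Pou3f1 (-0.56), a factor of cortical neurons as well. Mnx1 and Slc18a3, which define motor neurons and cholinergic cells, were not measured.

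Genes of dorsal root ganglion neurons and of Schwann cells, which lie outside the cord, moved in the same direction. Of 17 sensory neuron genes measured, 11 were higher and 1 lower, and several of these are also made in motor or dorsal horn neurons. Trpv1, the heat and capsaicin channel of pain fibres, read at least 1.89-fold higher in cord. Its difference was 0.96, and 0.50 with quantile normalization. Of 9 Schwann cell genes, 6 were higher and 1 lower, with mean levels from 8.33 to 8.50 in cord and from 7.85 to 8.10 in brain. Ngfr, the low-affinity neurotrophin receptor of Schwann cells and motor neurons, rose by 0.79. The part of ganglion or nerve root tissue in the higher levels of Prph, Ret and Calcb was not tested.

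A pair of glycinergic genes was far higher in cord. Slc6a5, the glycine transporter of glycinergic nerve endings, read 10.24, 10.44, 10.18 and 10.50 in cord, against 8.13, 7.90, 9.03 and 7.16 in brain, 4.87-fold higher (adjusted p = 5.03e-06). Glra1, the adult glycine receptor subunit, read 9.26, 9.09, 9.35 and 9.58 in cord and 7.12, 6.89, 7.97 and 6.62 in brain, 4.50-fold higher. For both genes WT brain 3 was the highest brain array and still lay below every cord array. Slc6a9, the glial glycine transporter, rose by 0.87 and Glra4, another receptor subunit, by 1.00. Glra2, the subunit of the immature brain, was lower by 0.28, but by 0.05 (adjusted p = 0.54) with the loess correction. In all, 7 of 14 measured genes of the list were higher and 1 lower, with a median of 0.22.

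GABA genes split. Of 17 measured, 5 were called higher and 8 lower (30.1% of all genes each way), with a median of -0.03 that turned to 0.16 with the loess correction. Slc6a11, a GABA transporter of astrocytes, rose by 0.88, and Abat, which breaks GABA down, by 0.43. The receptor subunit genes Gabrb2 (-0.97), Gabra2 (-0.73) and Gabrg1 (-0.51) fell, as did Gad2 (-0.55), which encodes a GABA-making enzyme. For Gabrb2 the levels were 9.10 ± 0.11 in cord and 10.06 ± 0.13 in brain (SD, n = 4 each). Among 23 glutamatergic genes, 11 were higher and 3 lower. Grin2a, an NMDA receptor subunit that replaces a fetal one as neurons mature, read 9.17, 8.61, 8.55 and 9.06 in cord, against 7.30, 7.03, 7.75 and 7.39 in brain, 2.79-fold higher. Grin1 rose by 0.86, Grm4 by 0.86 and Grik1 by 0.65. Slc17a7, the vesicular glutamate transporter of cortical neurons, was lower by 1.04 (adjusted p = 0.0377) and by 1.57 without WT brain 3, on which it read 6.91 against 8.92 to 9.12 on the other brain arrays. Leaving out any other array took its adjusted p past the threshold.

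Several genes of large axons and of release were also higher in cord. Of the 8 genes on the list of neurofilaments and related intermediate filaments, 5 rose, all by 2-fold or more, and 3 fell. Those that rose included Prph and the astrocyte filament gene Gfap, which are also counted on other lists. Nefm read 11.70, 11.74, 11.67 and 11.68 in cord, against 10.40, 10.29, 10.95 and 9.97 in brain, and Nefl was 2.36-fold higher. Those that fell included Nes (-0.57), the filament gene of progenitors. Of 20 genes for synaptic vesicles and release, 10 were higher and 3 lower. With the loess correction 16 were higher, and without centring 6 were higher and 3 lower. Syt2, the fast calcium sensor of hindbrain and cord synapses, read 9.82, 9.85, 9.81 and 9.84 in cord and 7.98, 7.61, 8.54 and 7.31 in brain, 3.92-fold higher. Sv2c was 2.68-fold higher and Cplx1 1.71-fold higher, while Cplx2 fell by 0.72. Among 23 sodium and potassium channel genes, 12 were higher and 1 lower. Scn1a rose by 1.05, Scn8a by 0.75 and Kcna1 by 0.74, and Hcn2, a channel opened by hyperpolarization, by 0.72. Scn3b, a sodium channel subunit of early neurons, fell by 0.47.

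Pan-neuronal genes went both ways. Of 19 pan-neuronal genes, 6 were higher and 8 lower (30.1% of all genes each way). Mean levels ran from 10.93 to 11.05 in cord and from 10.84 to 11.09 in brain. With the loess correction 9 were higher and 3 lower. Eno2, a glycolytic enzyme of mature neurons, rose by 0.84, while Dcx and Tubb3, cytoskeletal genes of young neurons, fell by 0.84 and 0.53.

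Factors of cortical and hippocampal neurons were lower in cord. Of 19 cortical and hippocampal factors, 16 were called lower and none higher (background 30.1% lower), 8 by 2-fold or more, with a median of -0.87. Without the muscle-rich arrays 10 were called lower. Tbr1, a factor of deep-layer cortical neurons, read 6.61, 6.84, 6.74 and 6.47 in cord, against 9.77, 9.95, 6.11 and 9.91 in brain. Its level on WT brain 3 was below every cord array. The difference was -2.27 ± 0.64 SE (adjusted p = 0.00578), and -3.21 without WT brain 3. Neurod6, a marker of cortical and hippocampal pyramidal neurons, read 7.64, 7.40, 8.06 and 7.50 in cord and 10.72, 11.15, 7.09 and 10.97 in brain, and Fezf2, which specifies neurons that project below the cortex, fell by 1.91. With the muscle-rich arrays left out the adjusted p was 0.0626 for Tbr1, 0.068 for Neurod6 and 0.0923 for Fezf2. The differences of Neurod6 and Fezf2 were then -2.25 and -1.91, close to -2.33 and -1.91 with all arrays. Eomes, a factor of intermediate progenitors, fell by 1.91, with brain levels of 8.93, 8.63, 7.92 and 8.29.

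Ventral forebrain factors moved both ways. Of 16 measured, 8 were lower and 5 higher, 4 and 2 by 2-fold or more, and without WT brain 3 there were 11 lower, 7 of them 2-fold. Without the muscle-rich arrays 4 were lower and 4 higher. Dlx1, a factor of forebrain inhibitory neurons, read 6.34, 6.80, 6.33 and 6.60 in cord, against 9.40, 9.39, 7.65 and 9.36 in brain (at least 4.66-fold lower), and the noncoding transcript Dlx6os1 of the same gene family's cluster was at least 3.97-fold lower. Foxp2 fell by 1.42. Dlx5 fell by 1.37, and differed by -0.91 (adjusted p = 0.0697) without the muscle-rich arrays. Ebf1 and Gsx1 were among the members that rose. Ebf1 read 10.38, 10.35, 10.27 and 10.35 in cord and 8.52, 8.50, 9.04 and 8.28 in brain, and Gsx1, a factor of dorsal cord progenitors, rose by 1.01, or 0.03 when no floor was set on its probe sets. Of 9 striatal genes, 4 were higher and 3 lower (30.1% of all genes each way). Gng7 fell by 0.78 and Ppp1r1b, which encodes the dopamine-regulated phosphatase inhibitor DARPP-32, by 0.86, with adjusted p = 0.18 for Ppp1r1b without the muscle-rich arrays.

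Tcf7l2 and Lhx9 were high on every brain array, WT brain 3 included. Tcf7l2, a Wnt pathway factor that marks the developing thalamus, read 7.53, 7.30, 7.60 and 7.55 in cord, against 10.41, 10.23, 10.65 and 10.36 in brain, 7.56-fold lower (adjusted p = 6.94e-12). Lhx9, another thalamic and midbrain factor, whose promoter is printed above, read 6.66, 6.71, 6.81 and 7.05 in cord and 9.35, 9.50, 9.87 and 9.49 in brain, 6.71-fold lower. For both, WT brain 3 was the highest array. The list of thalamic, hypothalamic and pituitary genes as a whole showed 4 higher and 2 lower of 13 measured. Tcfap2d, a factor of the midbrain, was at least 4.57-fold lower. Of 22 midbrain and cerebellum genes, 14 were lower and 1 higher. Th, the rate-limiting enzyme of dopamine synthesis, read 6.93, 6.80, 6.93 and 7.08 in cord, against 8.32, 8.46, 8.81 and 8.21 in brain, 2.86-fold lower. Slc6a3, the dopamine transporter, fell by 1.24 and Nr4a2, a factor of dopamine neurons, by 1.19, with 8.47 on WT brain 3 against 9.28 to 9.31 on the other brain arrays. Of 9 hindbrain monoaminergic genes, 4 were lower and 1 higher, with a median of -0.35. Slc6a4, the serotonin transporter, read 6.66, 7.04, 6.76 and 6.64 in cord and 8.55, 8.68, 9.17 and 8.47 in brain, 3.85-fold lower, and Slc18a2, which loads monoamines into vesicles, was at least 3.12-fold lower. Ddc, which makes dopamine and serotonin, was at least 2.77-fold lower.

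Choroid plexus genes were lower in cord. Ttr, which encodes the thyroid hormone carrier transthyretin and is the leading transcript of choroid plexus epithelium, read 6.22, 7.26, 6.42 and 7.95 in cord, against 12.81, 12.68, 12.94 and 12.84 in brain, 58.0-fold lower (difference -5.86 ± 0.26 SE, adjusted p = 4.09e-11). Otx2, a forebrain, midbrain and choroid plexus factor, read 5.40, 6.15, 6.02 and 5.46 in cord and 8.80, 8.89, 9.34 and 8.88 in brain, at least 4.75-fold lower. Clic6, a chloride channel of this epithelium, was at least 2.25-fold lower, and the potassium channel gene Kcnj13 at least 1.62-fold. Of 15 choroid plexus and ependymal genes measured, 9 were lower and 1 higher. Ptgds, which makes prostaglandin D2 in the meninges and choroid plexus, was 10.6-fold lower in cord. Meningeal genes followed in part. Of 18 fibroblast and meninges genes, 7 were lower, 5 of them by 2-fold or more, and 2 were higher, with mean levels from 8.23 to 8.63 in cord and from 8.43 to 8.83 in brain. Ogn was at least 3.58-fold lower and Fmod at least 2.22-fold, both small matrix proteoglycans. Lum, of the same protein family, fell by 1.21, and Slc6a13, a GABA and taurine transporter of the meninges, by 1.23.

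**Figure D3:**
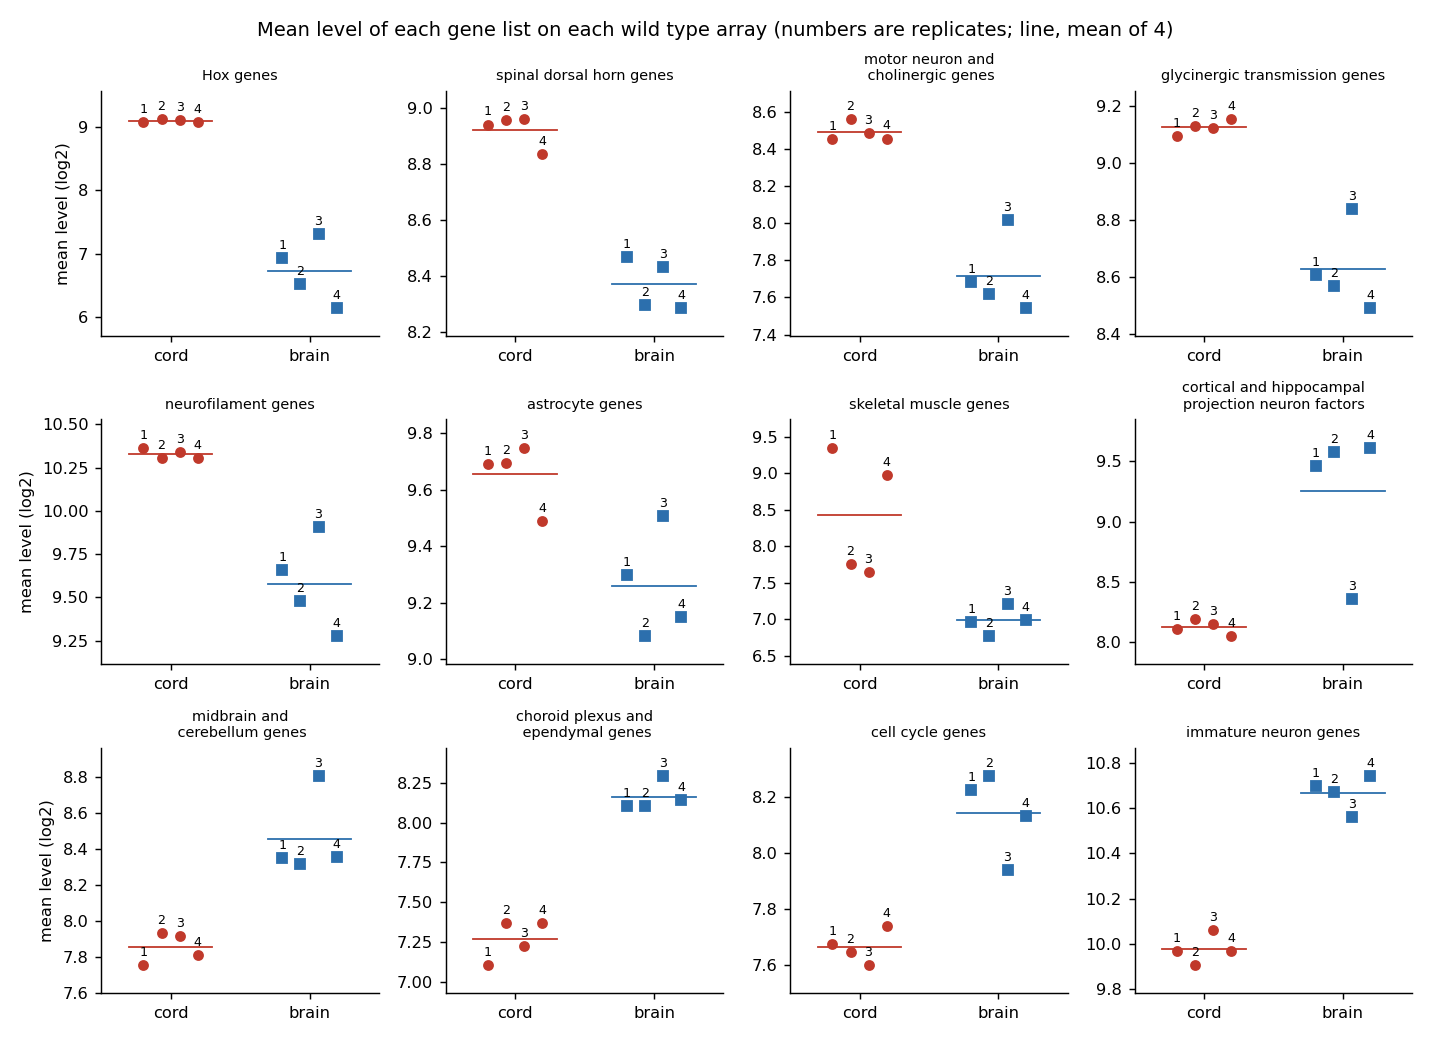
Mean level (log2) of 12 gene lists on each wild type spinal cord array (circles) and brain array (squares), with replicate numbers, and a line at the mean of 4. WT brain 3 sits apart from the other brain arrays for the cortical and midbrain lists, and cord arrays 1 and 4 sit apart for skeletal muscle.

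Genes of cell division and of young neurons were lower in cord. Of 18 cell cycle genes, 15 fell and none rose, with a median of -0.51, and 12 were called lower without the muscle-rich arrays. Top2a, which untangles replicated DNA, read 7.66, 7.51, 7.50 and 7.59 in cord, against 8.31, 8.46, 8.26 and 8.44 in brain, 1.74-fold lower. Kif11, Cdc2a and Bub1b, which act in mitosis, fell by 0.80, 0.73 and 0.71. Of 15 progenitor genes, 8 fell and 1 rose. Hes5, the Notch target that holds progenitors undifferentiated, read 8.30, 9.29, 8.72 and 9.15 in cord, against 10.19, 10.17, 10.40 and 10.30 in brain, 2.64-fold lower. Sox2 was 2.01-fold lower and Insm1, a factor of newborn neurons, 2.19-fold lower. Of 15 immature neuron genes, 12 fell and none rose, and 9 fell with the loess correction. Neurod1 read 7.63, 7.41, 7.55 and 7.46 in cord and 9.07, 9.12, 9.08 and 9.06 in brain, 2.97-fold lower (adjusted p = 8.69e-10). Its brain arrays, WT brain 3 included, lay within 0.1 of each other. Sox11 was 2.70-fold lower, Sox4 2.15-fold and Igfbpl1 3.00-fold. Islr2, a membrane protein of growing axons, was 5.67-fold lower, and Zfp238, a repressor in cortical neurons, 4.68-fold lower.

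Of 17 astrocyte genes, 7 rose and 1 fell. Of all genes, 30.1% were called higher. Gfap, the filament of mature astrocytes, read 9.89, 9.48, 9.77 and 9.10 in cord, against 8.39, 7.48, 7.97 and 7.83 in brain, 3.12-fold higher. Slc4a4, a bicarbonate transporter, was 2.03-fold higher, S100b 1.97-fold and the water channel gene Aqp4 1.90-fold. Gjb6, a gap junction gene, fell by 0.82. Of 11 oligodendrocyte precursor genes, 7 rose and none fell, among them Bcas1 (0.76), Cspg4 (0.70), which encodes the proteoglycan NG2, Sox10 (0.68) and Nkx2-2 (0.55, or 0.12 with quantile normalization). Of 11 myelin genes measured, 6 rose and 2 fell. Mal, a myelin membrane protein, read 7.86, 8.46, 8.10 and 8.14 in cord, against 7.29, 7.25, 7.43 and 7.05 in brain. Gm98, now called Myrf, the factor that starts myelin gene expression, rose by 0.82, Ugt8a, which makes myelin galactolipids, by 0.72, and Mag by 0.64. Cldn11 fell by 0.65. With quantile normalization the rise of Mag was 0.25 (adjusted p = 0.16).

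Skeletal muscle genes were higher in cord. Of 21 measured, 20 were called higher in cord and none lower, 15 by 2-fold or more, with a median of 1.45. For 8 of the 21 the brain mean lay under the floor, so these too could enter through cord arrays alone. With quantile normalization 9 were called higher, 6 by 2-fold or more, and with the loess correction 17 and 12. The size rested on cord arrays 1 and 4. Myl1, a fast myosin light chain, read 11.15, 7.15, 7.88 and 10.28 in cord, against 6.04, 5.93, 6.14 and 6.0 in brain. Actc1, the actin of heart and fetal muscle, read 12.12, 7.30, 8.09 and 11.46 in cord and 6.85, 6.52, 6.64 and 6.71 in brain. Without cord arrays 1 and 4 and the muscle-rich dKO arrays, Myl1 differed by 1.49, Actc1 by 1.01, Ckm by 1.23, Mylpf by 0.91 and Myh3 by 0.48, against 3.09, 3.06, 2.40, 2.16 and 1.94 with all arrays. The list then had 17 genes called higher, 4 of them by 2-fold or more, and a median of 0.57. Car3, a carbonic anhydrase of muscle and fat, differed by 2.58, and by 1.56 (adjusted p = 0.061) without those arrays. The levels of Myl1 on cord arrays 2 and 3 were still above every brain array. Ctnna3, a catenin of muscle and other cell junctions, did not follow that split, with 8.90, 8.76, 8.51 and 8.72 in cord and 5.91, 5.75, 6.19 and 5.54 in brain (at least 3.98-fold higher).

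Other tissues near the cord or brain gave smaller differences. Of 13 cartilage and bone genes, 9 were higher and none lower. Ibsp, a bone matrix protein, rested on cord array 4, where it read 9.50, and its difference was 1.19 with all arrays and 0.70 (adjusted p = 0.139) without that array. Col11a2, a cartilage collagen, rose by 1.01 and Runx2, a bone cell factor, by 0.96, and neither followed the muscle split. Of 18 endothelial and pericyte genes, 1 was higher and 3 lower, or 10 lower without centring and 11 with quantile normalization, with Tek, an endothelial receptor, at -0.48 and Rgs5 of pericytes at -0.41. Of 16 microglia and macrophage genes, 5 were higher and 2 lower, where 30.1% of all genes were called higher. C1qa, a complement gene of microglia, rose by 0.69, Trem2, a microglial receptor, by 0.69, and Mrc1, a marker of macrophages at brain borders, fell by 0.83. The median of this list was 0.18, and -0.06 with quantile normalization.

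Guidance, patterning and signalling genes were mixed. Of 29 axon guidance genes, 5 were higher and 9 lower, with a median of -0.10. With the loess correction 6 were higher and 6 lower, with a median of 0.01. Epha3, Epha7 and Epha5, receptors that guide axons by repulsion, fell by 1.13, 1.04 and 0.91. Robo3, which lets commissural axons cross the midline, rose by 0.83 and Sema5a by 0.72. Slit1, a midline repellent, rose by 0.88. Among 16 floor plate and roof plate genes, 8 were higher and 2 lower, with Nkx6-1 (0.75), a ventral progenitor factor, Gdf7 (0.65), a roof plate signal, and Spon1 (0.63), a floor plate adhesion protein, among those that rose. The median of this list was 0.38, and with quantile normalization 0.02, with 5 higher and 4 lower. Retinoic acid genes, which belong to a signal that sets the posterior axis, gave 8 higher and 7 lower of 19 (30.1% of all genes each way). Crabp1, a retinoic acid binding protein, was 1.99-fold higher, Aldh1a3, a retinoic acid making enzyme, 1.92-fold higher, and Meis1, a partner of Hox proteins, 1.74-fold higher. Aldh1a1, another such enzyme, found in midbrain dopamine neurons, was 2.35-fold lower and the receptor gene Rxrg 1.85-fold lower.

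More regulators of splicing were called lower than higher in cord, with Nova1 as the main exception. Of 36 measured, 21 were called lower and 6 higher, with a median of -0.25 (13 lower and 9 higher with the loess correction, and 13 and 3 without the muscle-rich arrays). Mean levels of the list, from 9.60 to 9.91, lay in the brightest of the 4 equal groups of genes. In that group 55.3% of all genes were called lower and 8.84% higher. Nova1 read 11.87, 11.77, 11.59 and 11.82 in cord, against 10.15, 9.80, 10.75 and 10.05 in brain, 2.98-fold higher (adjusted p = 6.93e-06). Every cord array lay above every brain array. Nova2, its paralog, read 8.56, 8.34, 8.68 and 8.57 in cord and 8.57, 8.25, 8.78 and 8.72 in brain, with a difference of -0.04 ± 0.11 SE (adjusted p = 0.752). Rbm35a and Rbm35b, now called Esrp1 and Esrp2, which are known from epithelia, rose by 0.77 and 0.66 from low levels, and Rbm20, known from heart muscle, by 0.65. With quantile normalization the differences were 0.28 (adjusted p = 0.132), 0.40 and 0.15 (adjusted p = 0.283). Khdrbs3, an RNA-binding protein of the STAR family, read 9.58, 9.16, 9.57 and 9.59 in cord, against 10.80, 10.78, 9.96 and 10.78 in brain, 2.15-fold lower. Tnrc4, Cugbp1 and Brunol6, now called Celf3, Celf1 and Celf6, members of a family that acts on splicing and mRNA decay, fell by 0.86, 0.67 and 0.63.

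The dKO arrays, which share no array with the wild type ones, shared most of the 2-fold rises and 73 of the 142 falls. Of the 359 genes 2-fold higher in wild type cord, 250 (69.6%) were 2-fold higher in dKO cord against dKO brain, out of 556 there (45%). For genes lower in cord the overlap was 73, which is 51.4% of the 142 wild type and 64.6% of the 113 dKO genes. No gene was 2-fold in opposite directions. Both comparisons shared the estimate of the spread and the choice of probe sets. A test of the difference between the tissue effects called none of 14570 genes, with 1312 at an unadjusted p under 0.05. Hoxc8 differed by 5.19 in wild type and 4.79 in dKO, Ttr by -5.86 and -6.11, and Slc6a5 by 2.28 and 1.73. Gfap differed by 1.64 in wild type and 0.53 in dKO.

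Exons were compared through the exon index, which is the log2 value of a probe set less its gene's level, array by array. A cassette exon, another start or end of the transcript, or a sequence variant under the probes can each change it. Positions of the probe sets within their genes were not used here, so each is given by its number. In 8913 genes expressed in both tissues, 154192 probe sets were tested. The index was called higher in cord for 20659 (13.4%) and lower for 15129 (9.81%). A 2-fold change on arrays that did not overlap was found for 2900 higher (1.88%) and 350 lower (0.227%), in 2140 genes. In most of these genes, 1497, a single probe set changed, and in 247 genes 3 or more did. Of the 3250 probe sets, 3121 were in genes whose level differed by less than 1, and 3100 (95.4%) were called the same way in the dKO arrays. The dKO comparison shared the estimate of the spread, the choice of probe sets and the trend with brightness. That share therefore cannot separate exon changes from the trend, and its part was not tested. The excess of rises lay in dim probe sets. Of the 2900 rises, 2081 were in the dimmest of 4 equal groups of probe sets and 152 in the brightest, against 127 and 61 of the 350 falls. With the loess correction there were 1689 rises and 583 falls, and 1702 of the 2272 probe sets were among the first set. How much of the excess of rises follows the brightness trend was not tested further.

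Genes with alternative exons known in neurons were examined as a list. Of 85 on the list 77 were tested, and 41 had at least 1 probe set changed 2-fold, as did 2140 of all 8913 genes tested. Listed genes had more probe sets per gene than genes in general, which raises such a count. The 77 genes held 94 such probe sets of 2704 (3.48%), against 2.11% of all probe sets. Mean gene levels of the list, from 9.73 to 10.02, lay in the brightest of the 4 equal groups of genes. No share matched for brightness was computed, so the part of the brightness trend in this excess was not tested. Ank3, the ankyrin that anchors sodium channels at the axon initial segment, had probe set 4506835 at -1.72, -1.76, -2.40 and -2.19 in cord, against -3.88, -4.15, -3.87 and -3.68 in brain, relative to the gene. The adjusted p was 6.23e-06 and the gene differed by 0.43. This probe set lay under the floor in brain, so its index was higher by at least 1.46, with the brain value taken at the floor. Index changes of other probe sets under the floor in a tissue are given as such bounds. They hold for the main settings only, and some other settings gave less. The index of Ank3 probe set 4506835 was higher by 1.44 with quantile normalization. That of Negr1 probe set 4640776, named below, was higher by 1.78 with the mean over probe sets. A2bp1, now Rbfox1, a splicing factor of neurons and muscle, had probe set 4596292 at -1.08, -1.39, -1.22 and -1.17 in cord and -3.72, -3.28, -2.79 and -3.48 in brain. In 6 of its 28 probe sets the index was 2-fold higher. Clasp2, which binds the growing ends of microtubules, had 8 of 62 probe sets 2-fold higher, led by 4908309 with a rise of 1.86. Its relative Clasp1 had probe set 5566682 higher by at least 1.0. Ank2 had 6 of 62 probe sets 2-fold higher. Mean log2 values of the leading probe sets in brain were 6.31 for Ank3, 6.86 for A2bp1, 7.49 for Clasp2, 6.67 for Ank2 and 5.94 for Clasp1. Those of Nrcam, Mbnl2 and Nf1, at 6.78, 6.93 and 6.86 in brain, rose by 1.50, 1.25 and 1.33 relative to the gene. The index was higher by at least 1.37 for Dlg2, a synaptic scaffold, and by at least 0.70 for Ktn1, both under the floor in brain.

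Changes were also found in the bright probe sets of Tnc and Aplp2. Tnc, the matrix protein tenascin C with many alternative repeats, had probe set 5307645 at -0.07, -0.24, -0.14 and 0.00 in cord, against -0.97, -0.96, -0.95 and -1.01 in brain. The mean log2 value of this probe set was 10.08 in cord and 9.18 in brain, and the gene differed by 0.03. Aplp2, a relative of the amyloid precursor protein, had probe set 5057562 at -1.68, -2.06, -1.78 and -1.78 in cord and -0.87, -0.73, -1.05 and -1.05 in brain, a fall of 0.90 with mean log2 values of 9.58 and 10.18. The leading probe sets of all 12 known genes named here differed in the same direction in the dKO arrays.

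**Figure D4:**
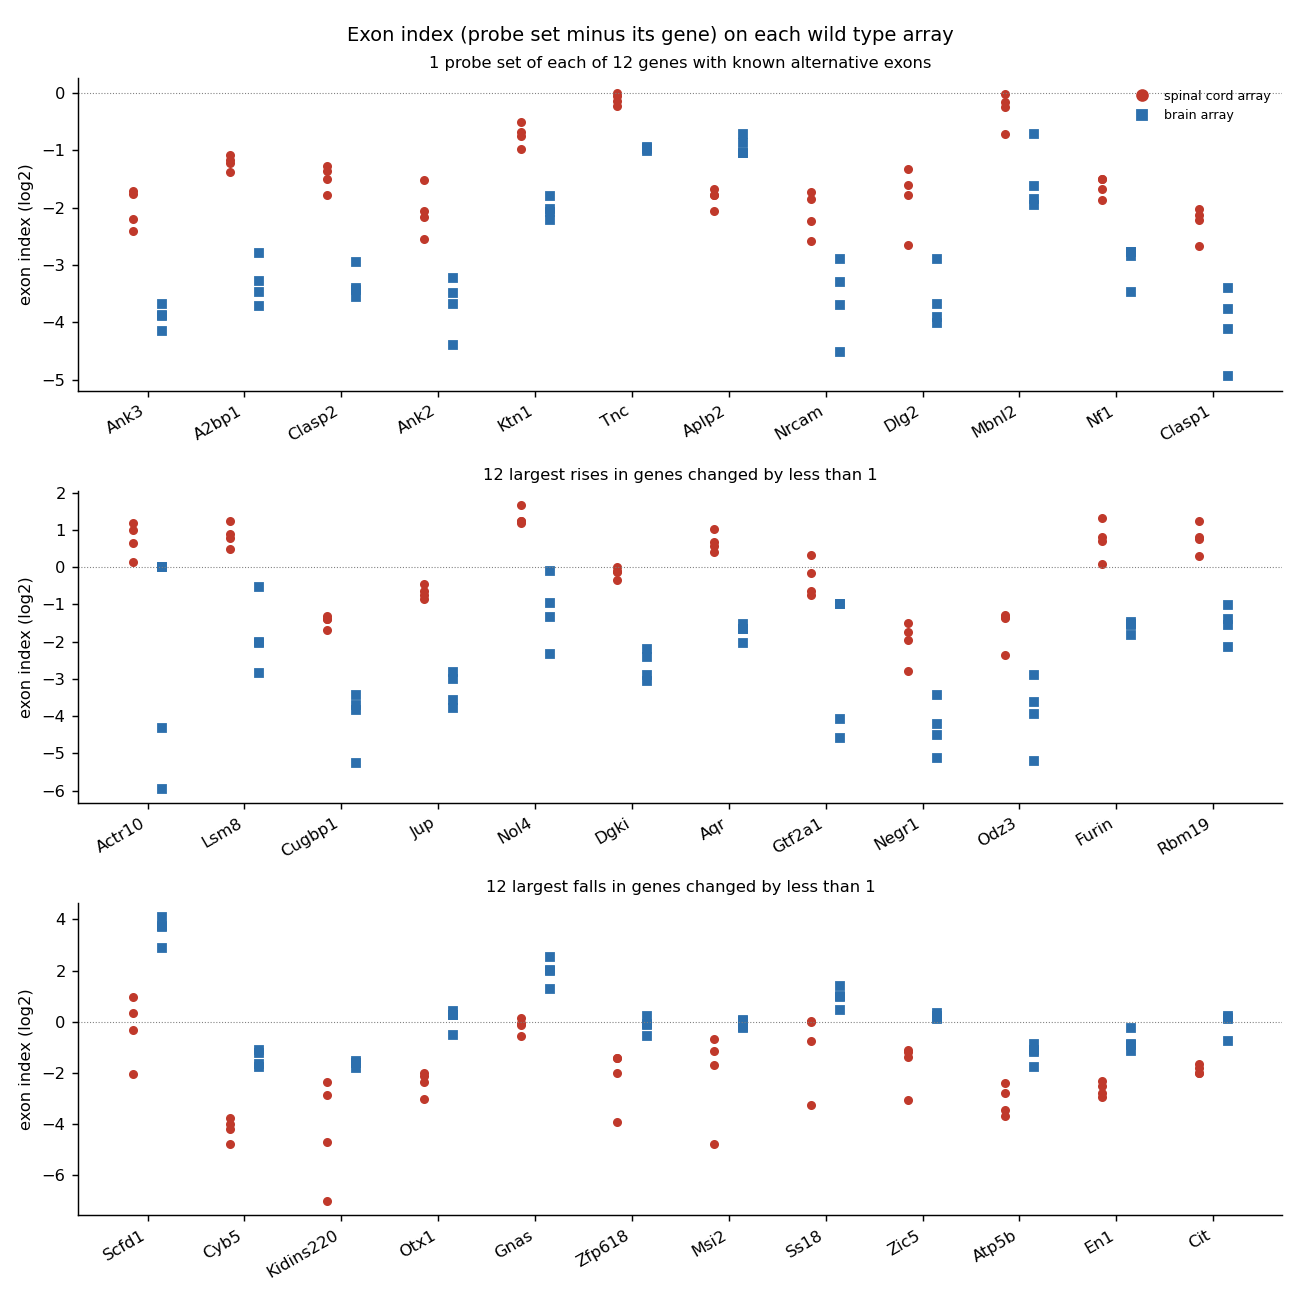
Exon index (log2, probe set minus gene) on the 4 wild type spinal cord arrays (circles, left) and the 4 wild type brain arrays (squares, right) for 1 probe set of each of 36 genes. The top panel shows genes with known alternative exons, 11 of 12 with a higher index in cord, the middle panel the largest rises and the bottom panel the largest falls, several of which rest on 1 or 2 arrays.

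The largest changes in genes that differed by less than 1 included some with an even spread and some carried by a few arrays. Furin, a protease of the secretory pathway, had probe set 5539482 at 0.10, 0.81, 0.70 and 1.33 in cord, against -1.81, -1.54, -1.52 and -1.48 in brain, a rise of at least 2.20 (adjusted p = 4.61e-05). Aqr, a helicase of the spliceosome, had probe set 4480177 higher by 2.39, and Dgki, a diacylglycerol kinase of neurons, had probe set 5430792 higher by at least 1.87. Nol4 probe set 5049105 read 1.24, 1.24, 1.20 and 1.68 in cord and -2.34, -1.35, -0.09 and -0.96 in brain. Lsm8 had a rise of 2.70. Jup, Cugbp1, Negr1, Odz3 and Rbm19, whose probe sets lay under the floor in brain, had rises of at least 1.75, 2.07, 2.16, 1.70 and 2.0. Actr10 probe set 4788397 had the largest rise, 3.32, with 0.15, 0.99, 0.66 and 1.20 in cord but 0.00, 0.00, -4.32 and -5.95 in brain. The brain arrays thus fell into a high pair and a low pair, and in the dKO arrays the change was -0.45. Gtf2a1 probe set 5495762 had a like pattern, with brain values of -0.99, -0.98, -4.59 and -4.07 (adjusted p = 0.0499, and above 0.05 in most alternative settings). In the dKO arrays its index differed by -0.75 (adjusted p = 0.537).

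Falls of the index included genes of regional patterning. Otx1, a forebrain factor, had probe set 4549865 at -2.13, -3.05, -2.39 and -2.03 in cord, against 0.25, 0.41, -0.53 and 0.26 in brain, with adjusted p = 1.64e-05, while the gene differed by -0.43. The probe set lay under the floor in cord, and with cord at the floor the difference of its index was -1.38, the smallest fall these values allow. En1, a factor of midbrain and of ventral interneurons, and Zic5 likewise had index differences of -1.09 and -1.29 with cord at the floor. Gnas, whose locus gives several transcripts from different first exons, had probe set 4688531 at 0.13, -0.14, -0.06 and -0.59 in cord and 2.52, 1.96, 1.25 and 2.03 in brain. Of its 49 probe sets, 3 were 2-fold lower and 2 were 2-fold higher relative to the gene. The level of the gene, a median over its probe sets, rose by 0.80, so an index can fall where the signal hardly changes. The probe sets without a 2-fold change had a median index difference of -0.34, and the brightest, 4439290, had -0.62. Of the 2-fold falls, 4593397 and 5153127 lay close to the limit. Probe set 4688531 fell in signal too, with mean log2 values of 9.40 in cord and 10.70 in brain. Cit, a kinase of cell division and neurons, had probe set 4380096 lower by 1.81, and Atp5b, of the mitochondrial ATP synthase, probe set 5613129 lower by 1.87. In the dKO arrays these differed by -1.34 and, for Atp5b, by -0.62, which was not called (adjusted p = 0.0759). Scfd1 probe set 4847276 read 0.98, 0.34, -2.07 and -0.35 in cord, against 4.09, 2.89, 3.71 and 3.73 in brain, a fall of 3.88 in wild type, but the dKO arrays gave a difference of 1.26. Kidins220, Msi2 and Ss18 had 1 or 2 cord arrays far below the others and falls from 1.95 to 2.62. Kidins220 differed by 1.26 in the dKO arrays. Msi2 and Ss18 differed there by -0.67 and -0.91, and neither was called (adjusted p = 0.427 and 0.195). Cyb5 and Zfp618, under the floor in cord, had differences of -1.52 and -1.68 with cord at the floor. Neither was called in the dKO arrays, where the index differences were -0.76 and -1.04 (adjusted p = 0.408 and 0.0586).

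Mbp, which encodes myelin basic protein, was picked out after its values were seen, because its probe sets split. The gene level differed by -0.04 (adjusted p = 0.753), yet 6 of its 16 probe sets had an index 2-fold higher in cord, on arrays that did not overlap, and none was 2-fold lower. Probe set 4720953 read -0.61, -0.70, -0.22 and -0.19 in cord, against -3.85, -2.31, -2.23 and -2.47 in brain. Probe set 4322005 read 1.66, 1.97, 2.25 and 1.85 in cord and 0.58, 0.19, 1.05 and 0.20 in brain. The others lay between -0.45 and 0.92. The Mbp locus is known to hold both the myelin transcripts and the longer Golli transcripts, which start further upstream and are made in neurons and other cells. Which probe sets belong to which transcript was not determined here. In the dKO arrays the same 6 probe sets differed by 0.40 to 1.66.

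**Figure D5:**
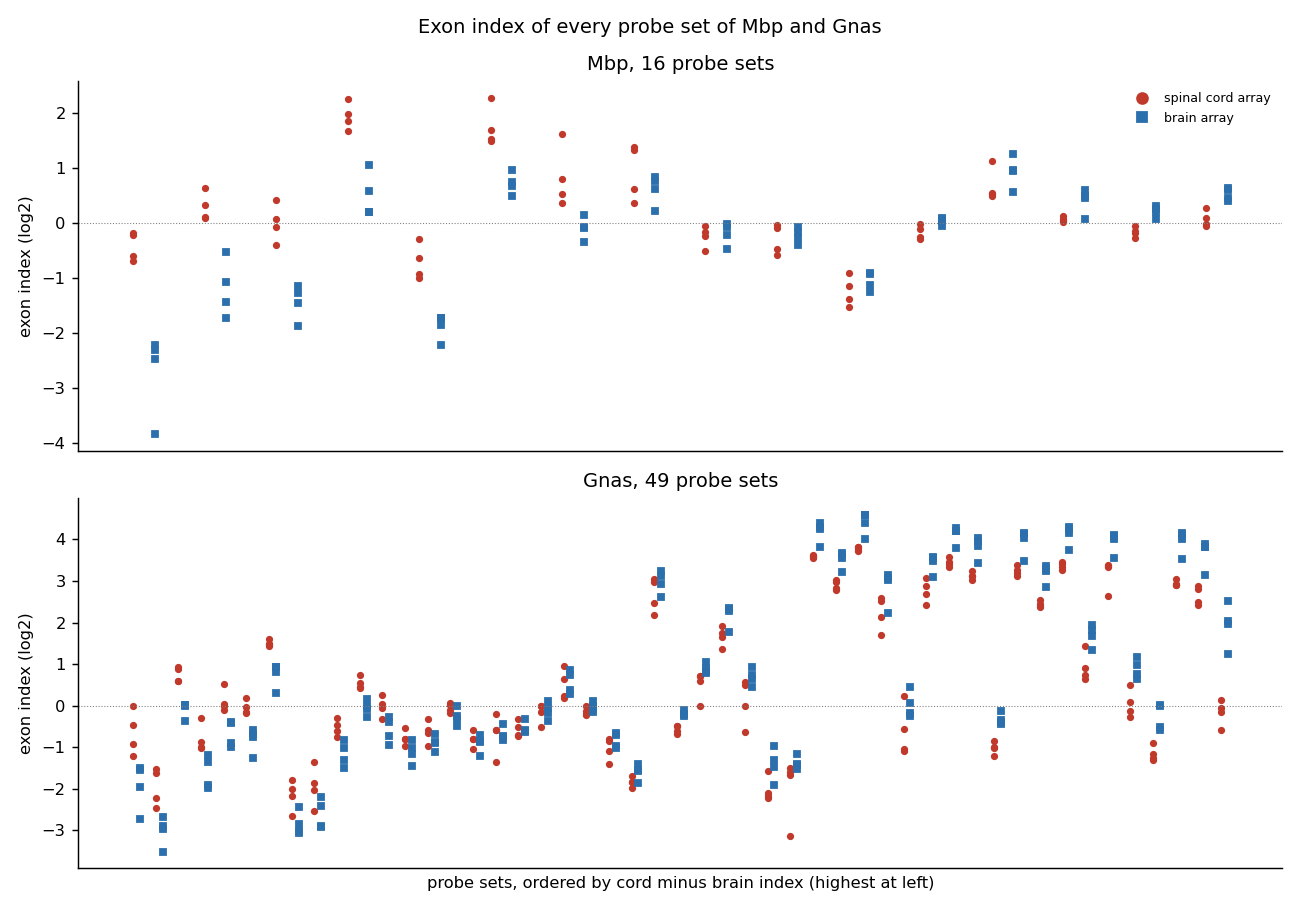
Exon index (log2, vertical axis) of all 16 Mbp probe sets and all 49 Gnas probe sets, ordered by the difference, on the 4 wild type spinal cord arrays (circles, left) and the 4 wild type brain arrays (squares, right). In Mbp 6 probe sets at the left are higher in cord and most others overlap, and in Gnas 2 are 2-fold higher at the left and 3 are 2-fold lower at the right.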

How the data were processed

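RNA from 4 wild type spinal cords and 4 wild type brains was measured on 8 of 16 Affymetrix mouse exon arrays. The authors deposited linear intensity values for 625534 probe sets, produced by PLIER in Affymetrix Power Tools with mm8 as the build, per the submitters' processing notes. How the arrays were normalized before that is not given in these sources. GEO's platform annotation gave 1 symbol to 303629 probe sets, several to 5892 and none here to 316013.

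Gene level was the median log2(intensity + 16) over at least 3 probe sets whose mean over all 16 arrays lay above the floor. The exon index covered genes with at least 5 such probe sets and a level at least 1 above the floor in both wild type tissues. Group means were fitted over 16 arrays with limma 3.58.1 (R 4.3.3), with Benjamini-Hochberg adjusted p at 0.05. On simulated data for the cord against brain comparison with 14481 genes, 73% of genes changed by 0.5 and 93% changed by 1 were called, as were 60% of 190 probe sets changed by 1 among 162672. The simulated noise was independent between probe sets. It left out spread that all probe sets of a gene share on an array, so the gene shares can be too high for these arrays.

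Replicate numbers did not pair the samples: same-numbered cord and brain arrays had deviations correlated at -0.04, -0.15, -0.10 and -0.08. Members and the 38 gene lists were chosen with earlier results of these data known. Named genes were the 15 largest rises and falls on arrays that did not overlap, up to 4 called members each way of a list, Hox genes, 12 exon rises, 12 exon falls, 12 known exon genes, Nova1, Nova2 and Xist, and not every one of them is printed. The number of arrays limits the precision, and p-values measure the spread between embryos as labelled. Promoters are from RefSeq.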

Additional observations from a re-analysis of the deposited data

Results flagged for a closer look

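Within the 4 arrays of a tissue, some results had 1 array far from the rest, with a gap to the nearest other array that took more of the group's range than Dixon's 95% critical value. Chance gives this in about 1 in 20 groups, and 51 of 516 groups examined showed it. WT brain 3 was the array in 26 of the gene levels. It was low for Dlx6os1 (6.62, others 9.26 to 9.50), Islr2 (10.90, others 11.53 to 11.62), Dlx1 (7.65, others 9.36 to 9.41), Gda (7.23, others 9.0 to 9.23), Neurod6 (7.09, others 10.73 to 11.15), Tbr1 (6.11, others 9.77 to 9.95), Fezf2 (6.75, others 10.06 to 10.27), Dlx5 (7.22, others 8.87 to 9.05), Lhx8 (6.77, others 8.77 to 8.97), Gng7 (8.91, others 9.98 to 10.17), Nr4a2 (8.47, others 9.28 to 9.31), Nts (7.59, others 9.92 to 9.98), Slc17a7 (6.91, others 8.92 to 9.12), Sox11 (10.36, others 10.80 to 10.86), Igfbpl1 (7.99, others 9.38 to 9.62), Sox4 (10.44, others up to 11.07), Epha3 (8.30, others 9.43 to 9.52), Khdrbs3 (9.97, others 10.78 to 10.80) and Rxrg (7.36, others 8.60 to 8.73). It was high for Hoxd10 (6.88, others 6.18 to 6.23), Otx2 (9.34, others 8.80 to 8.89), Tcfap2b (9.65, others 8.69 to 8.85), Slc6a9 (10.06, others 9.24 to 9.35), Grik1 (9.12, others 8.51 to 8.61), Eno2 (10.36, others 9.65 to 9.76) and Brunol6 (9.18, others 8.93 to 8.96).

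Other gene levels with 1 array apart were Hoxb6 on WT cord 3 (9.20, others 8.86 to 8.90), Ptgds on WT cord 1 (7.26, others 7.93 to 8.04), Ptgds on WT brain 2 (10.87, others 11.31 to 11.36), Wt1 on WT cord 3 (7.78, others 7.91 to 7.92), Slc5a7 on WT cord 3 (8.57, others 8.79 to 8.82), Hcn2 on WT cord 4 (8.98, others 9.26 to 9.29), Ibsp on WT cord 4 (9.50, others 7.35 to 7.71), Runx2 on WT cord 4 (9.06, others 8.96 to 8.97), Clic6 on WT brain 1 (7.81, others 7.93 at most) and Khdrbs3 on WT cord 2 (9.16, others 9.57 to 9.59). Among exon indices these were Nol4 probe set 5049105 on WT cord 4 (1.68, others 1.20 to 1.24), Odz3 probe set 5190907 on WT cord 2 (-2.37, others -1.36 to -1.28), Otx1 probe set 4549865 on WT brain 3 (-0.53, others 0.25 to 0.41), Zic5 probe set 4607081 on WT cord 1 (-3.08, others -1.40 to -1.11), Cit probe set 4380096 on WT brain 3 (-0.75, others 0.08 to 0.21) and Nf1 probe set 4823936 on WT brain 1 (-3.46, others -2.84 to -2.78). Mean levels of gene lists set apart were cortical and hippocampal projection neuron factors on WT brain 3 (8.35, others 9.46 to 9.62), ventral forebrain and interneuron factors on WT brain 3 (8.07, others 8.72 to 8.75), thalamus, hypothalamus and pituitary genes on WT brain 3 (8.19, others 7.87 to 7.91), midbrain and cerebellum genes on WT brain 3 (8.81, others 8.32 to 8.36), hindbrain monoaminergic genes on WT cord 1 (6.89, others 7.09 to 7.10), spinal dorsal horn genes on WT cord 4 (8.84, others 8.94 to 8.96), spinal ventral interneuron genes on WT brain 3 (8.18, others 7.65 to 7.70), neural progenitor genes on WT cord 1 (8.24, others 8.44 to 8.46) and Schwann cell genes on WT cord 1 (8.33, others 8.48 to 8.50). No cause of these gaps was tested.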

How the results depend on the processing

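The 8764 gene calls came to 5781 with a floor at the 75th percentile of probe sets and kept within 1.5 times under the other settings. Genes 2-fold higher in cord numbered 359, and 198 without centring, 136 with quantile normalization, 170 with a pseudocount of 64, 231 with no floor, 170 with the higher floor, 201 with the mean over probe sets, 567 without WT brain 3 and 647 without it and the muscle-rich arrays. Genes 2-fold lower numbered 142, and in the same order 320, 356, 89, 280, 74, 98 (mean), 242 and 255. Called exon indices numbered 35788, and 14175 with the higher floor, 21778 with the 8 wild type arrays alone and 23402 without the muscle-rich arrays. The 2900 index rises came to 1499 with quantile normalization, 1544 with a pseudocount of 64, 412 with the higher floor, 4605 without WT brain 3 and the muscle-rich arrays, 1689 with loess and 1632 among probe sets less than 1 below their gene in a wild type tissue. The 350 falls came to 727 with quantile normalization, 138 with a pseudocount of 64, 72 with the higher floor, 622 without WT brain 3, 546 without the muscle-rich arrays, 849 without both, 724 with no minimum gene level and 583 with loess. The 323 genes 2-fold the same way in dKO came to 170 with a pseudocount of 64, 168 with the higher floor and 209 with the mean. The cause of these shifts was not tested. The loess correction and the limit of less than 1 below the gene were chosen after seeing the data.

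Leaving out 1 wild type array at a time gave 7623 to 9405 gene calls, 275 to 567 genes 2-fold higher, 114 to 242 lower, 25570 to 36174 index calls, 2408 to 4293 index rises, 276 to 622 falls and 262 to 437 genes shared with dKO; the highest counts of 2-fold genes, index rises and falls were without WT brain 3. With the replicate number as a block there were 8344 gene calls, 358 genes 2-fold higher and 142 lower, and 27831 index calls, and the block changed no call of a gene or exon named here. Differences turned for Xist (-0.083 without centring, -0.088 with quantile normalization, -0.051 with no floor, -3.26 without the muscle-rich arrays, -2.02 without these and WT brain 3, and from -1.09 to 1.31 leaving out 1 array), for Nova2 (0.021 without WT brain 3, and from -0.15 to 0.023 leaving out 1 array), and with the higher floor for Eomes (0.15), Lhx8 (0.64) and Ppp1r1b (0.042), which then rest on fewer probe sets. No detection calls were used, so levels near the floor are the least certain.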
